A study of Mus musculus with 10 samples.

Results

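The transcription factor p53, encoded by Trp53 in the mouse, and 9 of its direct target genes were examined in supporting cells of the adult murine utricle. The 10 genes were chosen by name, as Trp53 together with Mdm2, Mdm4, Ccng1, Trp53inp1, Sesn2, Phlda3, Zmat3, Gadd45a and Btg2, and matched by GRCm38 symbol; they are 10 of the 48709 genes in the deposited tables. All 10 were found and all 10 passed the filter on low counts in every comparison. No expression value entered the choice of symbols, although the list was drawn up with earlier results of these data known.

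Utricles, which are balance organs of the inner ear, were explanted at postnatal day 21 from Lfng-EGFP mice, whose supporting cells carry a green fluorescent reporter driven by the promoter of Lfng. The cultures received 10 µM TRULI, an inhibitor of the Lats1 and Lats2 kinases of the Hippo pathway, in 0.1% DMSO, or 0.1% DMSO alone. Green cells were sorted after 5 days of exposure (groups DMSO_d5 and TRULI_d5, 3 labelled libraries each) or after 5 days of exposure and 5 days without the compound (groups DMSO_d10 and TRULI_d10, 2 labelled libraries each), and their RNA was sequenced. All 10 libraries thus share the strain, the age, the reporter and the culture, and TRULI_d10 cells no longer had the compound at harvest. The study's methods call the replicates biological. How many animals went into a library is not given in the sources used here.

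For 4 of the 10 libraries the deposited table carries a name for another condition than the sample label. The libraries labelled TRULI_d5 replicates 1 and 2 were named DMSO_d10 replicates 1 and 2, and those labelled DMSO_d10 replicates 1 and 2 were named TRULI_d5 replicates 2 and 3. The library labelled TRULI_d5 replicate 3 was named TRULI_d5 replicate 1. The 3 DMSO_d5 and the 2 TRULI_d10 libraries have 1 condition in both. Libraries were grouped by sample label, and each comparison that holds a conflicting library is given by deposited name as well. The summed level of 10 proliferation genes, such as Mki67 and Top2a, was 494 and 361 CPM (library-size-scaled counts with edgeR's TMM factors) in the libraries labelled DMSO_d10 and 111 CPM in TRULI_d5 replicate 3, against 2.97 and 2.16 CPM in those labelled TRULI_d5 replicates 1 and 2 and 6.92 to 22.4 CPM in the 5 others. The sum of 6 Yap target genes was 1169 to 1385 CPM in the 2 labelled DMSO_d10 and TRULI_d5 replicate 3 and 76.7 to 455 CPM in the other 7. In both sums, replicate 3 of the labelled TRULI_d5 group thus lies with the 2 labelled DMSO_d10, above the other 7 libraries. Replicates 1 and 2 lie among those 7, which goes against the labels of the 4 libraries. No library was moved to another group because of these values.

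The tables sum to between 2463872 and 6255149 counts a library, and 3 counts correspond to 0.469 to 1.2 CPM, counting error only. The mitochondrial ribosomal RNA mt-Rnr2 took 13% to 26.4% of the counts in the libraries named for day 5 and 1.45% to 2.53% in those named for day 10. The 6 supporting-cell markers summed to between 1980 and 5765 CPM, and 0 of the 6 were absent from every library. Lfng, whose promoter drives the reporter, was at 506 to 563 CPM in DMSO_d5, 21.2 to 310 CPM in labelled TRULI_d5, 548 and 290 CPM in labelled DMSO_d10 and 100.2 and 66.1 CPM in TRULI_d10. Of the markers of other cells, Ptprc, Aif1 and Cx3cr1 (macrophages), Cdh5 and Kdr (endothelium), Tyr and Dct (melanocytes) and Pou3f4 and Tbx18 (mesenchyme) had at most 3 counts in every library. Others of the same lists were higher in single libraries, with up to 25 counts of Lyz2, 17 of Pecam1, 45 of Col1a1 and 26 of Dcn. Pmel, of the melanocyte list, had 24 to 63 counts in 8 libraries and at most 2 in the others, and the Schwann cell marker Sox10 was at 9.34 to 40.2 CPM in all 10. Hair-cell markers were present, with a sum of 7 genes from 25.3 to 769 CPM. In sorted bulk RNA, a larger share of cells of a type and more RNA per cell cannot be told apart.

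p53 is kept at a low level in most cells by the ubiquitin ligase Mdm2 and its partner Mdm4, and is released when DNA damage, oncogenic signals, nutrient shortage or other stress interrupts that control. Released p53 binds a response element made of a pair of half-sites and raises the transcription of genes that halt the cell cycle, repair DNA, limit growth signalling or start apoptosis, and also of Mdm2, which closes a negative feedback loop. Much of the control of p53 acts on the protein, so that the level of Trp53 mRNA alone does not give its activity.

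Promoter windows are shown for Trp53 and Ccng1, the 2 members that rose in more of the comparisons below than any other, because p53 targets are defined by p53 binding near the gene. RefSeq windows on GRCm38.p6, from 250 bases before to 50 bases after the transcription start, were held for 8 of the 10 members, in 9 windows; Trp53inp1 and Zmat3 had none. The 250 bases before the start are given 5′ to 3′ on the strand of the gene, for Trp53 chr11:69580109-69580358 on the plus strand and for Ccng1 chr11:40755287-40755536 on the minus strand, with each match to the p53 half-site consensus in capitals.
Trp53: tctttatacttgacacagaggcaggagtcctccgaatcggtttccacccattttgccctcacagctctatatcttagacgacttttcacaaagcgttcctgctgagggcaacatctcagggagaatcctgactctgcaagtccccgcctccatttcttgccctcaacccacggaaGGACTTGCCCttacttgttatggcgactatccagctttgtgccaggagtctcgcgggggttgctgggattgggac
Ccng1: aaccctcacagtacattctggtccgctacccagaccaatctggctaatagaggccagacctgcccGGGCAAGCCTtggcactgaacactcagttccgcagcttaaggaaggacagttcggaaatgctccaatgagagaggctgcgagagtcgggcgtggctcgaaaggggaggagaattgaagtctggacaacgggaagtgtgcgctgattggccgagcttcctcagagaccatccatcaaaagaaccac
The p53 half-site consensus is 10 bases long and is its own reverse complement, so that a match counts on both strands. A match began 75 bases before the start in Trp53 and 185 bases before it in Ccng1. Matches were also held by the windows of Mdm2 (GAACTTGCCT, 186 bases before the start) and Gadd45a (GGGCTAGCCC, 40 bases before the start), and those of Mdm4, Sesn2, Phlda3 and Btg2 had none. A half-site was thus in the windows of 4 of 8 members, and in 9.55% of 27025 genes with a window. The full element of 2 half-sites at most 13 bases apart was in 0 of the 8 and in 0.074% of all genes. These are matches of letters in a short window and do not show binding.

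The members lie on 6 chromosomes and are all annotated as protein-coding in GENCODE M21 (GRCm38). Trp53 is at chr11:69580359-69591873 and Ccng1 at chr11:40748552-40755311, Mdm2 at chr10:117688875-117710758, Gadd45a at chr6:67035096-67037457 and Zmat3 at chr3:32334792-32366014. On chromosome 1 are Mdm4 (chr1:132959484-133030561), Phlda3 (chr1:135766119-135769136) and Btg2 (chr1:134075170-134079120), and on chromosome 4 Trp53inp1 (chr4:11156431-11174379) and Sesn2 (chr4:132492032-132510501). Mdm4 overlaps the processed pseudogene Gm29257, Sesn2 the gene Gm12981 and Gadd45a the transcript E230016M11Rik; whether the counting used strand is not given in the sources used here, so that reads may be shared with these.

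In control cells at day 5 the members covered a wide range per length. Btg2 was the highest, at 422 ± 112 FPKM (SD, n = 3; fragments per kilobase of effective length, scaled to the protein-coding total). Ccng1 followed at 47.5 ± 14.5 FPKM and Mdm2 at 38.9 ± 3.17 FPKM, and these did not differ beyond their spread. The other 7 lay between 10.5 and 18.9 FPKM: Gadd45a, Zmat3, Sesn2, Phlda3 and Trp53inp1, then Mdm4 and Trp53, both at 10.5 FPKM, with neighbours in that order within each other's spread.

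A single feature was common to the 7 libraries outside DMSO_d5. In all 7, Trp53, Mdm2, Mdm4, Ccng1 and Sesn2 were above their highest value in the 3 DMSO_d5 libraries, whichever way the 4 conflicting libraries are grouped. These are 5 of 10 members, and 2.95% of the 11918 protein-coding genes tested over all libraries had this pattern; 0 members and 3.51% of genes were below all 3. The pattern depended on the scale for 3 of the 5. With counts divided by the protein-coding total alone, it held for Trp53, Mdm4 and Ccng1 (2.67% of genes), and with FPKM for Trp53 and Ccng1 (2.73% of genes), while on both of these scales Mdm2 and Sesn2 were above the controls in 4 of the 7. In CPM, Bax, Tnfrsf10b, Aen, Polk and Ddit4 of the other p53 targets read below had the pattern too. So did Gdf15, which had 2 and 1 counts in the libraries named DMSO_d10. This split was chosen after the values were seen, it mixes treated and untreated and both days, and it is given without a test.

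Trp53 itself was at 11.6, 13.8 and 15.1 CPM in DMSO_d5, 34.9, 43.1 and 31.3 CPM in the libraries labelled TRULI_d5 replicates 1 to 3, 25.4 and 46.1 CPM in those labelled DMSO_d10, and 56.2 and 32.1 CPM in TRULI_d10. The 3 DMSO_d5 libraries were the lowest of the 10, and the mean of the other 7 was 2.85 times theirs. Beyond this, the groups overlapped under either grouping.

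Of the 2 negative regulators, Mdm2 was at 79.9, 76.9 and 86.0 CPM in DMSO_d5, 95.1, 115 and 114 CPM in labelled TRULI_d5, 118 and 154 CPM in labelled DMSO_d10, and 162 and 97.2 CPM in TRULI_d10, a mean 1.51 times higher outside DMSO_d5. On the FPKM scale the libraries labelled TRULI_d5 replicates 1 and 2, at 39.8 and 42.1 FPKM, and TRULI_d10 replicate 2, at 36.7 FPKM, were within the DMSO_d5 range of 36.4 to 42.5 FPKM. Mdm4, which binds p53 and blocks its activation domain, read 48.7, 43.0 and 54.3 CPM in DMSO_d5, 95.1, 79.7 and 64.4 CPM in labelled TRULI_d5, 97.0 and 72.3 CPM in labelled DMSO_d10, and 111 and 122 CPM in TRULI_d10. In CPM, the 2 TRULI_d10 libraries were the highest of the 10 for Mdm4. In FPKM the library labelled DMSO_d10 replicate 1 was the highest, at 23.8 FPKM, and TRULI_d10 was at 19.2 and 18.0 FPKM.

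Ccng1 encodes cyclin G1, a p53 target that recruits a phosphatase to Mdm2, and showed the greatest difference between DMSO_d5 and the rest among the 10 members. It stood at 87.5, 164 and 120 CPM in DMSO_d5, 396, 622 and 265 CPM in labelled TRULI_d5, 327 and 427 CPM in labelled DMSO_d10, and 425 and 548 CPM in TRULI_d10, with a mean 3.48 times higher in the 7. The lowest of the 7 was above the highest control on each of the 3 scales.

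Sesn2, a sestrin that restrains mTORC1 under stress, was at 33.2, 39.8 and 63.7 CPM in DMSO_d5, 73.0, 82.6 and 168 CPM in labelled TRULI_d5, 72.1 and 110 CPM in labelled DMSO_d10, and 73.2 and 94.0 CPM in TRULI_d10. Phlda3, which competes with Akt for membrane lipids, was at 18.4, 11.8 and 12.9 CPM in DMSO_d5, 20.02, 20.1 and 34.2 CPM in labelled TRULI_d5, 26.9 and 40.5 CPM in labelled DMSO_d10, and 28.3 and 11.2 CPM in TRULI_d10. The highest 2 libraries were the same for both genes, TRULI_d5 replicate 3 and the one labelled DMSO_d10 replicate 2, each named TRULI_d5, and TRULI_d10 replicate 2 was the lowest for Phlda3. The summed level of 8 genes of the integrated stress response, such as Atf4, was also highest in those 2 libraries, at 902 and 951 CPM. It was 737 CPM in the library labelled DMSO_d10 replicate 1, 581 to 636 CPM in DMSO_d5 and 348 to 506 CPM in those named for day 10. The part of these genes was not tested. Zmat3, an RNA-binding zinc-finger protein, ranged only from 94.8 to 178 CPM, and both ends of that range were TRULI_d10 libraries. In FPKM the highest was TRULI_d5 replicate 3, at 26.6 FPKM.

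Trp53inp1 and Gadd45a each had 1 library well above the other 9. In CPM, 4 of the 7 libraries outside DMSO_d5 were above all 3 DMSO_d5 libraries for either gene. Below all 3 were 2 of the 7 for Trp53inp1 and 0 for Gadd45a. Trp53inp1, whose product promotes autophagy and cell death under stress, was at 32.7 to 63.9 CPM in 9 libraries and at 395 CPM in TRULI_d10 replicate 1. The sum of the 7 hair-cell markers, of which 0 were absent from every library, was 769 CPM in that library, the highest of the 10, and 117 CPM in TRULI_d10 replicate 2. It was 120 to 188 CPM in DMSO_d5, 25.3 to 575 CPM in labelled TRULI_d5 and 409 and 143 CPM in labelled DMSO_d10, and in TRULI_d5 replicate 3, with the sum of 575 CPM, Trp53inp1 was at 61.5 CPM. Gadd45a, a growth-arrest gene that acts in DNA repair and stress-kinase signalling, was at 9.19 to 32.1 CPM in 9 libraries and at 63.6 CPM in the library labelled TRULI_d5 replicate 2. The part of hair cells in these single values was not tested.

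Btg2, an antiproliferative gene that is also induced as an immediate-early gene, was ordered differently from the other members. It was at 644, 813 and 1056 CPM in DMSO_d5, 1520, 621 and 250 CPM in labelled TRULI_d5, 460 and 438 CPM in labelled DMSO_d10, and 1053 and 912 CPM in TRULI_d10. In CPM, the 3 lowest libraries are those named TRULI_d5. In FPKM the library named DMSO_d10 replicate 2, at 232 FPKM, was below the one named TRULI_d5 replicate 2, at 255 FPKM. The summed level of 8 immediate-early genes such as Fos and Jun was 1900 to 4192 CPM in the 3 libraries named TRULI_d5. It was 4682 to 6015 CPM in DMSO_d5 and 7580 to 11749 CPM in the 4 others.

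**Figure D1:**
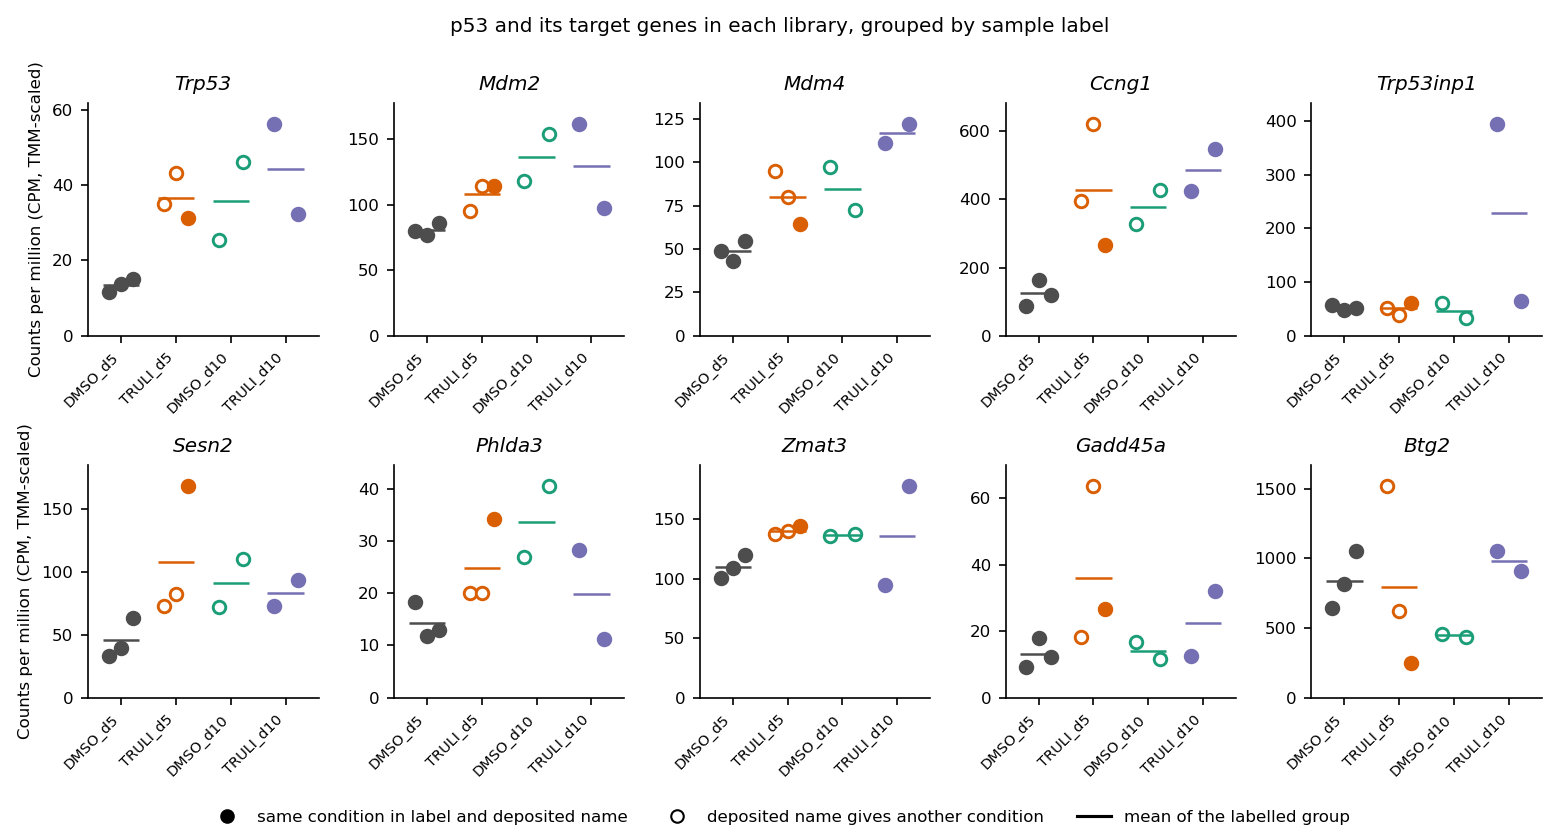
Level of each of the 10 members in every library (CPM, TMM-scaled, linear axis from 0), by sample label; a line marks the group mean, and open points are the 4 libraries whose deposited name gives another condition. The 3 DMSO_d5 points lie below every other point for Trp53, Mdm2, Mdm4, Ccng1 and Sesn2, and Trp53inp1 stands out in 1 TRULI_d10 library at 395 CPM.

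The comparison of TRULI_d5 with DMSO_d5 asks how these genes differ after 5 days with TRULI, which by the study's account might also act on other enzymes than Lats kinases. The quasi-likelihood test of edgeR was used, p-values were adjusted by the Benjamini-Hochberg method over all protein-coding genes tested, and a gene counts as changed where the adjusted p is under 0.05 and the fold change exceeds 1 in size on the log2 scale. By sample label, 0 of 10 members were changed. In edgeR's test 5 members had an unadjusted p under 0.05, as did 1433 of the 10580 genes tested. DESeq2 called Trp53 and Ccng1. Over all genes edgeR called 0.00945% as higher and 0.0% as lower, and DESeq2 1.72% and 0.577%. The largest log2 fold changes were those of Ccng1 (1.79, SE 0.43, adjusted p = 0.332), Gadd45a (1.45, SE 0.55, adjusted p = 0.347), Trp53 (1.43, SE 0.37, adjusted p = 0.332) and Sesn2 (1.25, SE 0.44, adjusted p = 0.338), by edgeR. The median over the 10 members was 0.75 and that over all genes tested 0.03. Without the library labelled TRULI_d5 replicate 3, Ccng1 and Trp53 passed, where 10.5% of all genes were higher and 8.14% lower, the remaining libraries being those of DMSO_d10 against DMSO_d5 by name.

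By deposited name, 3 of 10 members rose in TRULI_d5 and 0 fell, where 2.1% of all genes were higher and 0.992% lower. The 3 were Ccng1 (log2 fold change 1.48, SE 0.28, adjusted p = 0.0178), Trp53 (1.36, SE 0.31, adjusted p = 0.0411) and Phlda3 (1.27, SE 0.30, adjusted p = 0.0474), and in each the 3 TRULI_d5 libraries were above the 3 controls. Sesn2 (1.37, adjusted p = 0.0554) and Btg2 (-1.11, adjusted p = 0.0656) narrowly missed the threshold in edgeR's test. With the replicate number of the deposited names as a block, both passed as well, which gave 4 members higher and 1 lower (Sesn2 and Btg2 included), where 4.21% of all genes were higher and 1.94% lower. Mdm2 had a log2 fold change of 0.69 and Mdm4 of 0.70, and Trp53inp1 of -0.01. The median of the members was 0.70, against 0.02 for all genes tested. In the fit without the block the 3 calls depended on single libraries, and the blocked fit was not repeated with libraries left out. Without any single DMSO_d5 library 0 members passed, where 166 of 11453, 39 of 11465 and 96 of 11367 genes were higher without replicates 1, 2 and 3. Without TRULI_d5 replicates 1, 2 or 3 (deposited numbering) 1 member passed, namely Ccng1, Sesn2 and Ccng1. There 235 of 11348, 105 of 11204 and 249 of 11286 genes were higher. With all 10 libraries in one fit, Ccng1 alone passed, where 0.545% of all genes were higher. In the same comparison 8 of 9 proliferation genes tested rose, and the 6 hair-cell markers tested had log2 fold changes above 0, of which edgeR called 0, with 5 at an unadjusted p under 0.05, and DESeq2 called 5. Of 8 immediate-early genes 1 fell (Fos, log2 fold change -1.10, adjusted p = 0.0423, edgeR) and 0 rose, with a median of -0.68. Of 8 genes of the integrated stress response 1 rose (Chac1) and 0 fell. The part of these lists in the members' values was not tested.

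**Figure D2:**
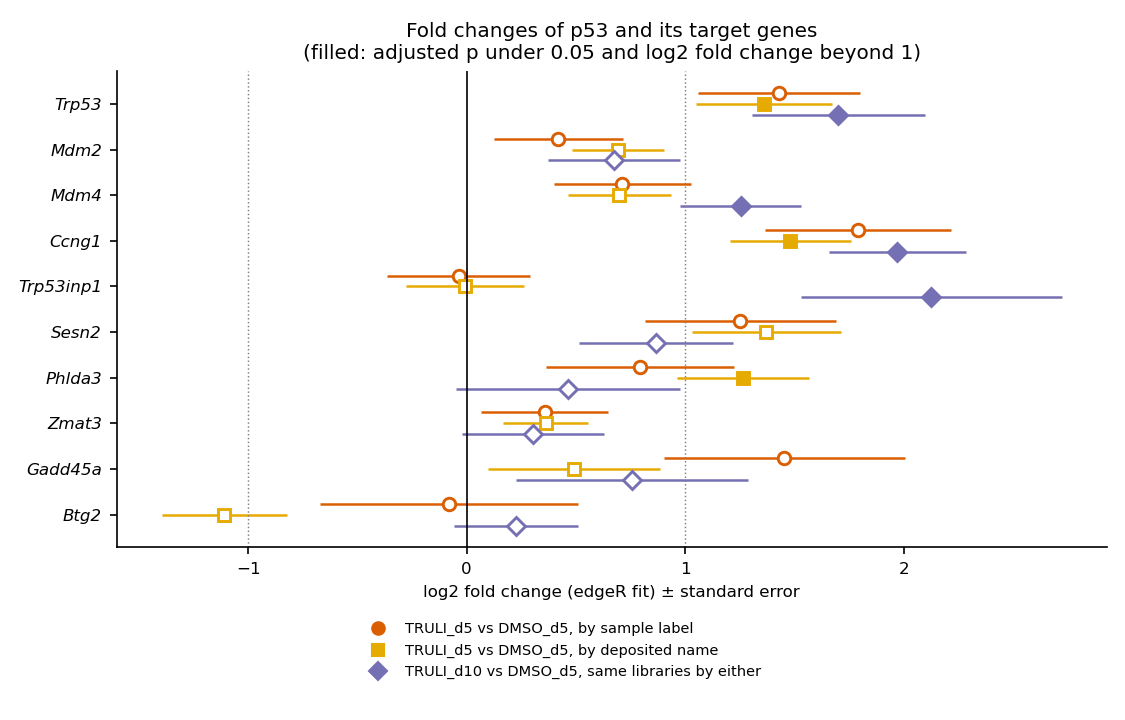
Log2 fold change of each member ± its standard error from the edgeR fit, for TRULI_d5 against DMSO_d5 by sample label and by deposited name and for TRULI_d10 against DMSO_d5; filled symbols passed the adjusted p and the fold threshold (dotted lines at ±1). Trp53 and Ccng1 lie to the right of 1 in each of the 3 fits, Btg2 moves from -0.08 by label to -1.11 by name, and Trp53inp1 is near 0 at 5 days.

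The comparison of TRULI_d10 with DMSO_d10 asks whether a difference remained 5 days after the compound was removed. By label, 0 of 10 members were changed by edgeR, where 0.942% of all genes were higher and 1.03% lower. In the same fit 2 of 6 supporting-cell markers (Lfng and Slc1a3), 9 of 10 proliferation genes and 3 of 6 Yap targets fell. Of 8 immediate-early genes 2 rose (Ier2 and Junb) and 0 fell. By name edgeR called 0 genes of these lists. Their part in the members' values was not tested. By label, Trp53inp1 (log2 fold change 2.32, SE 0.78, adjusted p = 0.128) and Btg2 (1.14, SE 0.32, adjusted p = 0.0935) had an unadjusted p under 0.05 in edgeR's test, among 2823 of 11469 genes. DESeq2 called both, where it called 7.05% of all genes as higher, and both passed in edgeR's test without TRULI_d10 replicate 2, where 9.95% were higher. Without TRULI_d10 replicate 1 it was Phlda3 that passed, as lower in TRULI_d10, where 13% were lower. Leaving out 1 of the 2 libraries of a day-10 group, here and in the comparisons below, leaves a single library whose spread is assumed to be that of the other group, so that these values show which library a call rests on and add no support. By name, again 0 members were changed and 0.0% of all genes tested. Trp53inp1 (2.36, SE 0.75, adjusted p = 0.938, edgeR) was the 1 member with an unadjusted p under 0.05, among 490 of 10845 genes. DESeq2 called 0 members, and 2 of 4 hair-cell markers tested. The median member was at 0.34 by label and 0.06 by name. Trp53 had a log2 fold change of 0.31 (SE 0.50) by label and 0.20 (SE 0.55) by name, and Ccng1 of 0.37 (SE 0.34) and -0.06 (SE 0.37). These misses do not show that the levels were alike.

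Between TRULI_d10 and TRULI_d5 the question is what changed on withdrawal. By label 0 members were changed by edgeR, as were 0.0% of all genes. An unadjusted p under 0.05 was found for 1 member and for 347 of 11444 genes, and DESeq2 called 0 members. By name, 1 member rose: Btg2, with a log2 fold change of 1.39 (SE 0.33, adjusted p = 0.0313), where 8.23% of all genes were higher and 5.99% lower. Of the supporting-cell markers, 3 of 6 fell in this comparison by name (Lfng, Slc1a3 and Sox2). So did 9 of 10 proliferation genes and 3 of 8 genes of the integrated stress response. Of 8 immediate-early genes 3 rose, with 7 at an unadjusted p under 0.05. Their part was not tested. Both TRULI_d10 libraries, at 912 and 1053 CPM, were above the 3 libraries named TRULI_d5, the highest of which was at 460 CPM. Leaving out any 1 of those 3 ended the call. Without replicates 1, 2 and 3 (deposited numbering) 108 of 11469, 3 of 11438 and 526 of 11533 genes were higher. Trp53inp1 (2.19, SE 0.64, adjusted p = 0.0535) was close to the threshold, and it passed without TRULI_d10 replicate 2 (7.69% of all genes higher) and with all 10 libraries in one fit (9.77% higher). Without TRULI_d10 replicate 1 Phlda3 passed as lower (9.42% of all genes lower).

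Time in culture without the compound is addressed by DMSO_d10 against DMSO_d5. By label, 1 member rose, Ccng1 (log2 fold change 1.62, SE 0.30, adjusted p = 0.0154), where 2.07% of all genes were higher and 0.467% lower. Without the library labelled DMSO_d10 replicate 2 it did not pass, and without replicate 1 Trp53 passed as well, where 1.52% of all genes were higher. With all 10 libraries in one fit 0 passed, where 4 of 11918 genes were higher. By name, 2 rose, Ccng1 (2.03, SE 0.34, adjusted p = 0.0100) and Trp53 (1.51, SE 0.38, adjusted p = 0.0266, edgeR), where 10.5% were higher and 8.14% lower. Without DMSO_d5 replicate 2 neither passed, where 0 of 10632 genes were higher. Without DMSO_d5 replicates 1 or 3 Ccng1 alone did, where 289 of 10621 and 431 of 10470 genes were. By name, Lfng (-3.63) and Slc1a3 (-1.19) of the supporting-cell markers and 4 of 6 hair-cell markers tested fell in this comparison, and 4 of 8 immediate-early genes rose. By label Slc1a3 rose (1.26) and 0 of the supporting-cell markers fell, while 8 of 10 proliferation genes, with a median log2 fold change of 4.58, and 4 of 6 Yap targets rose. The part of these genes in the results was not tested. Ccng1 was thus called as higher in DMSO_d10 under both groupings, but these take different libraries as DMSO_d10. Those labelled DMSO_d10 are named TRULI_d5, so that the 2 calls are not repeats of 1 result on control cultures. The DMSO_d5 libraries are shared by this comparison and those of TRULI_d5 and TRULI_d10 with DMSO_d5, so that a low value in these 3 libraries enters each of them.

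TRULI_d10 against DMSO_d5 is the one comparison free of conflicting libraries, but treatment and time in culture cannot be told apart in it. Here 4 of 10 members rose and 0 fell, where 11.0% of all genes were higher and 8.76% lower. Of the 6 supporting-cell markers, 0 rose and 3 fell in the same comparison, Lfng (log2 fold change -2.67, adjusted p = 0.0041), Slc1a3 (-1.26, adjusted p = 0.0267) and Sox2 (-1.15, adjusted p = 0.0449, edgeR), and their sum was 2969 to 4281 CPM in DMSO_d5 and 2168 and 2383 CPM in TRULI_d10. Of 6 hair-cell markers tested, with a median of 1.32, edgeR called 0, with 3 at an unadjusted p under 0.05, and DESeq2 called 2. Of 8 immediate-early genes 3 rose and 0 fell. The mitochondrial RNA mt-Rnr2 took 16.2% to 26.4% of the counts in DMSO_d5 and 1.45% and 2.5% in TRULI_d10. The part of these genes in the members' values was not tested. Ccng1 had a log2 fold change of 1.97 (SE 0.31, adjusted p = 0.00812), Trp53 of 1.70 (SE 0.39, adjusted p = 0.0213), Mdm4 of 1.25 (SE 0.28, adjusted p = 0.0183) and Trp53inp1 of 2.13 (SE 0.60, adjusted p = 0.0377). The last rests on TRULI_d10 replicate 1, without which it was not called, while Gadd45a then was, where 15.6% of all genes were higher. Without any single DMSO_d5 library Ccng1 alone passed. Without DMSO_d5 replicates 1, 2 and 3, 380 of 11105, 195 of 11167 and 489 of 11038 genes were higher. With all 10 libraries in one fit, 0 passed when the others were grouped by label, where 8 of 11918 genes were higher. The same 4 passed when grouped by name, where 1297 of 11918 were. All 10 members had a log2 fold change above 0, with a median of 0.81 against 0.01 for all genes tested; among the 6 not called were Sesn2 (0.87), Gadd45a (0.76) and Mdm2 (0.67).

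Whether the treatment difference itself differed between the days was tested by the interaction over all 10 libraries. By label and by name, 0 members and 0.0% of all genes were changed in edgeR's test. There, 2 members by label and 3 by name had an unadjusted p under 0.05, as did 792 and 1110 of 11918 genes. DESeq2 called 0 of the 10 under either grouping. The extremes by name were Trp53inp1 (log2 difference of differences 2.35, SE 0.79, adjusted p = 0.439) and Ccng1 (-1.52, SE 0.47, adjusted p = 0.395).

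Other p53 targets were read from a list of 28 genes. By label 0 of the 20 tested changed in TRULI_d5 against DMSO_d5, with a median log2 fold change of 0.28. Of these, 3 had an unadjusted p under 0.05 in edgeR's test and DESeq2 called 0. By name 5 of 25 tested rose and 0 fell, where 2.1% of all genes were higher, with a median of 0.52: Apaf1, the apoptosome scaffold; Eda2r, a death-receptor relative; Gdf15, a secreted stress cytokine; Pidd1, a caspase-2 adaptor; and Gtse1, a microtubule protein of dividing cells. These are edgeR's calls, and DESeq2 called 8 of the 25. Apaf1 was at 4.93 to 5.45 CPM in DMSO_d5 and at 16.6 to 21.6 CPM in the 3 libraries named TRULI_d5 (log2 fold change 1.91, SE 0.35, adjusted p = 0.0151, edgeR). Gdf15 had 0, 0 and 1 counts in DMSO_d5 and 19, 21 and 21 counts in those 3. Eda2r had 0, 2 and 1 counts in DMSO_d5 and 32, 44 and 26 in those 3, so that the folds of both genes cannot be given with any precision. Proliferation genes summed to 111 to 494 CPM in the same 3 libraries, and their part in these results was not tested.

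Cdkn1a, the best known p53 target and an inhibitor of cyclin-dependent kinases, did not pass in any comparison, by edgeR or DESeq2. It was at 61.1, 39.8 and 35.9 CPM in DMSO_d5, 54.4, 53.5 and 93.8 CPM in labelled TRULI_d5, 64.9 and 72.1 CPM in labelled DMSO_d10, and 46.4 and 78.9 CPM in TRULI_d10. The 3 libraries named TRULI_d5 were above the 3 controls, and the 2 named DMSO_d10 were within the control range. In TRULI_d5 against DMSO_d5 by name, Cdkn1a had a log2 fold change of 0.78 (SE 0.27, unadjusted p = 0.0136, adjusted p = 0.161, edgeR). By label it was 0.57 (SE 0.38, adjusted p = 0.500, edgeR). These misses do not show that the levels were alike.

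In TRULI_d10 against DMSO_d5, edgeR called 6 of 21 other targets tested as higher and 0 as lower, where 11.0% of all genes were higher. The median of the 21 was 0.69. The 6 were Apaf1, Gdf15, the apoptotic effector Bax, the TRAIL receptor Tnfrsf10b, the kinase Plk3 and the DNA polymerase Polk. DESeq2 called 9 of the 21, among them Sesn1 as lower. Bax was at 4.79, 5.26 and 8.43 CPM in DMSO_d5 and at 20.3 and 26.4 CPM in TRULI_d10 (log2 fold change 1.90, SE 0.48, adjusted p = 0.0276). In DMSO_d10 against DMSO_d5, 6 of 26 rose by label (Aen, Apaf1, Eda2r, Gdf15, Gtse1 and Pidd1), where 2.07% of all genes were higher, and 3 of 20 by name (Aen, Bax and Fbxw7), where 10.5% were, and 0 fell under either grouping. Aen, a nuclease of apoptotic cells, was the gene called under both, with log2 fold changes of 1.5 by label and 1.35 by name, from different DMSO_d10 libraries. In TRULI_d10 against DMSO_d10, edgeR called 0 of 26 by label (5 with an unadjusted p under 0.05, 2 by DESeq2) and 0 of 23 by name (4 with an unadjusted p under 0.05, 1 by DESeq2). By name, TRULI_d10 against TRULI_d5 had 2 higher (Plk3 and Fbxw7) and 2 lower (Pmaip1 and Pidd1) of 26 tested, where 8.23% and 5.99% of all genes were, and by label edgeR called 0 of 24, with 0 at an unadjusted p under 0.05 and 0 by DESeq2. In TRULI_d10, Pmaip1 had 3 and 0 counts and Pidd1 0 and 2.

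**Figure D3:**
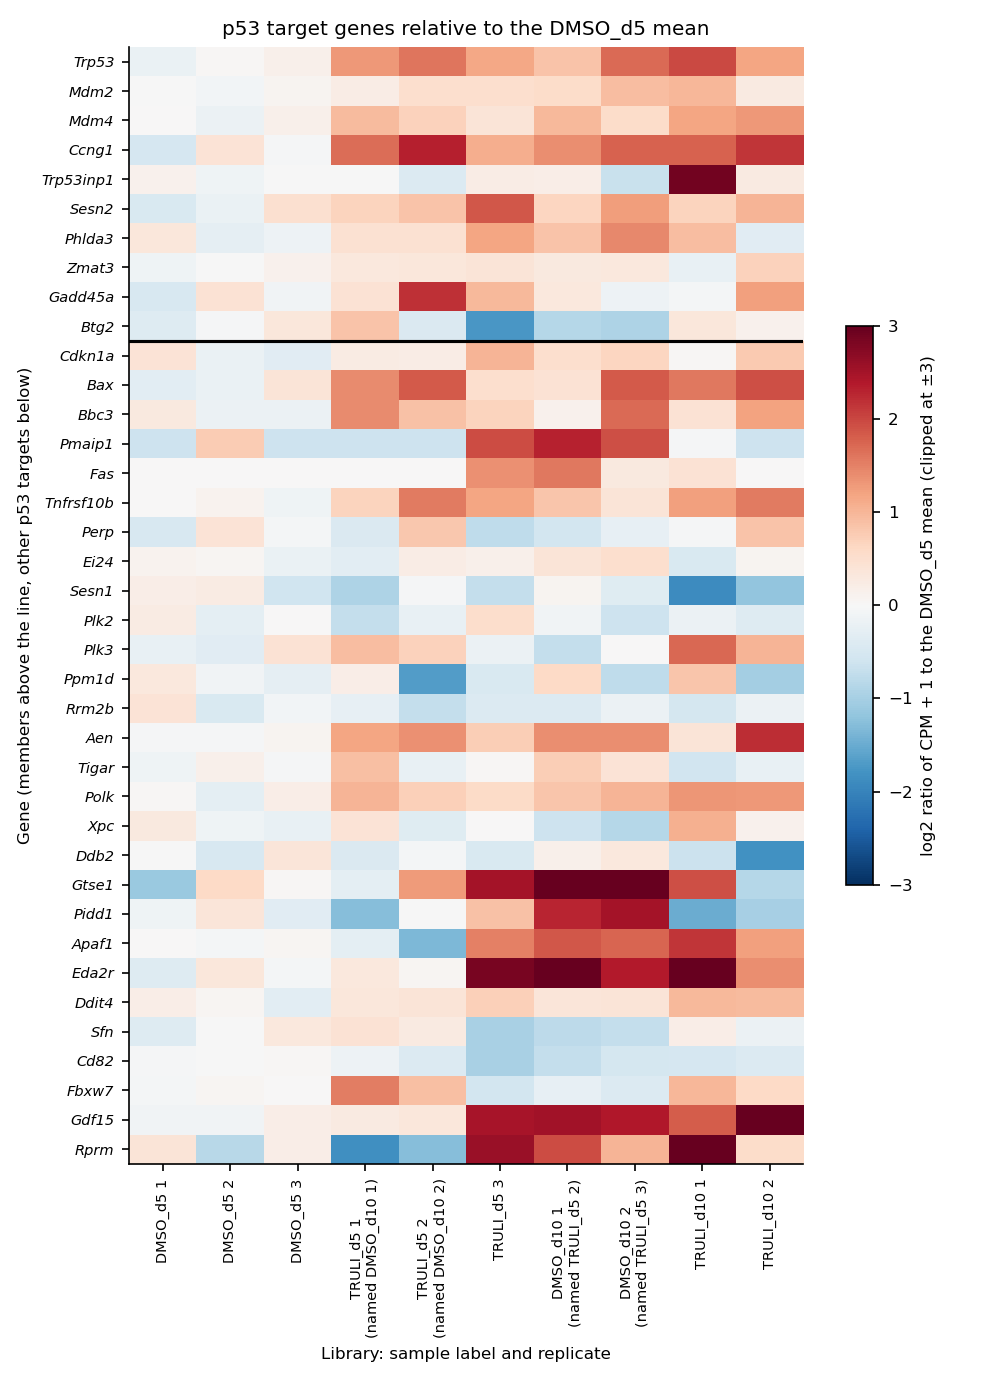
Members (above the line) and 28 other p53 targets (below), as log2 of CPM + 1 relative to the mean of the 3 DMSO_d5 libraries, in each of the 10 libraries with its label and, where it differs, its deposited name. Trp53, Mdm4 and Ccng1 are above that mean in all 7 libraries to the right; Eda2r, Gdf15 and Apaf1 are high in the 3 libraries named TRULI_d5 and in both TRULI_d10 libraries, and low in the 2 named DMSO_d10.

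Eda2r, Gdf15 and Apaf1, singled out after their values were seen, were ordered differently from Trp53 and Ccng1. In the libraries labelled TRULI_d5 replicates 1 and 2, named DMSO_d10, Gdf15 had 2 and 1 counts and Apaf1 was at 4.07 and 1.44 CPM, below the control range, while Trp53 (34.9 and 43.1 CPM) and Ccng1 (396 and 622 CPM) were well above theirs. In TRULI_d10, Gdf15 was at 2.78 and 11.6 CPM and Apaf1 at 26.3 and 13.4 CPM. Other targets of the list were above the controls in the 2 libraries named DMSO_d10, as Trp53 was. Bax was at 18.0 and 24.4 CPM there, Polk at 40.2 and 32.3 CPM against 15.8 to 22.6 CPM in DMSO_d5, and Aen at 23.0 and 26.2 CPM against 9.19 to 10.2 CPM.

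Upstream of p53, a list of 21 family members, kinases and regulators was read in the same way. The relatives Trp63 and Trp73 and the Mdm2 inhibitor Cdkn2a were at or near 0 in all 10 libraries, with at most 0.657 CPM. In TRULI_d10 against DMSO_d5, 0 of 17 tested rose and 3 fell, where 8.76% of all genes were lower: the damage-sensing kinase Atm (log2 fold change -3.0, adjusted p = 0.0422), the ubiquitin ligase Cop1 (-1.51, adjusted p = 0.0456) and Trp53bp2 (-2.83, adjusted p = 0.00476, edgeR), a p53-binding protein of the ASPP family. Atm had few counts, with 28, 16 and 30 in DMSO_d5 and 2 and 8 in TRULI_d10. It had 109 and 0 counts in the 2 libraries named DMSO_d10, so that its fold change is imprecise. Trp53bp2 was at 93.5, 105 and 81.0 CPM in DMSO_d5 and at 15.7 and 10.6 CPM in TRULI_d10, and in the 2 libraries named DMSO_d10 it was at 21.4 and 7.54 CPM. In DMSO_d10 against DMSO_d5 by name, 2 rose (Chek2 and Hipk2) and 2 fell (Cop1 and Trp53bp2) of 16 tested, where 10.5% of all genes were higher and 8.14% lower. By label edgeR called 0 of 18, with 4 at an unadjusted p under 0.05 and 0 by DESeq2. In TRULI_d5 against DMSO_d5 it called 0 of 16 by label (2 at an unadjusted p under 0.05, 0 by DESeq2) and 0 of 18 by name (4 and 1). In TRULI_d10 against TRULI_d5 by name, 1 of 18 rose (Ppp1r13b, 1.35) and 1 fell (Trp53bp2, -2.13), where 8.23% of all genes were higher and 5.99% lower, and by label edgeR called 0 of 18, with 0 at an unadjusted p under 0.05 and 0 by DESeq2.

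Of 10 paralogues of the members, edgeR called 3 as higher in TRULI_d10 against DMSO_d5 and 0 as lower, where 11.0% of all genes were higher and 8.76% lower. It gave 6 an unadjusted p under 0.05, and DESeq2 called 5, with Sesn1 and Btg3 as lower. The 3 were Gadd45b (log2 fold change 2.52, SE 0.41, adjusted p = 0.00846), Gadd45g (3.30, SE 0.70, adjusted p = 0.0165) and Phlda2 (3.28, SE 0.75, adjusted p = 0.0200). Gadd45b was at 23.6, 35.2 and 66.4 CPM in DMSO_d5 and at 249 and 235 CPM in TRULI_d10, and the 2 libraries named DMSO_d10 were at 107 and 272 CPM. The same 3 genes rose in DMSO_d10 against DMSO_d5 by name, where 10.5% of all genes were higher. By label, where 2.07% were, 0 of 10 did, 1 had an unadjusted p under 0.05 in edgeR's test and DESeq2 called 0. Gadd45a had a log2 fold change of 0.76 (adjusted p = 0.334) in the first of these comparisons and of 1.61 (adjusted p = 0.0730) in the second by name, where DESeq2 called it, as did edgeR's test with no filter or without DMSO_d10 replicate 1 (deposited numbering). Phlda3 was at 0.46 and 0.48. Members and paralogues were not tested against each other. Sesn1 and Sesn3, the other sestrins, passed in none of the comparisons by edgeR, and DESeq2 called Sesn1 as lower in TRULI_d10 against DMSO_d5. Phlda2 also rose in TRULI_d10 against DMSO_d10 by label, as 1 of 10, where 0.942% of all genes were higher, and by name edgeR called 0 of 10, with 0 at an unadjusted p under 0.05 and 0 by DESeq2. In TRULI_d10 against TRULI_d5 by name Gadd45b (log2 fold change 1.85), Gadd45g (2.60) and Phlda2 (4.89) rose and Btg3 fell (-1.60, SE 0.44, adjusted p = 0.0445, edgeR), where 8.23% of all genes were higher and 5.99% lower. Phlda2 had 7, 1 and 4 counts in the libraries named TRULI_d5 replicates 1, 2 and 3, the last 2 being those labelled DMSO_d10. Its fold change against either group is thus imprecise.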

How the data were processed

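RNA of sorted utricular supporting cells was sequenced in 10 libraries. Reads had been aligned to GRCm38 (STAR) by the authors, who deposited expected counts per gene, not normalized, with an effective length; the counting program is not given in the sources used here, and the study's methods and the labels name different library kits. Expected counts were rounded. Of 48709 genes, 48349 matched GENCODE M21 and 21695 are protein-coding. No pair of libraries held like counts (chi-square per degree of freedom at least 15.3).

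Conditions came from the sample labels, and from the deposited names as an alternative, since 4 libraries conflict. edgeR 4.0.16 (R 4.3.3) was run with filterByExpr, TMM and the quasi-likelihood test on the 2 groups of a comparison, adjusted over protein-coding genes. CPM used TMM factors over all 10 libraries, and FPKM the protein-coding totals. Named genes were all members, Cdkn1a and changed genes of the lists. Members and lists were chosen with earlier results of these data known. Alternatives were DESeq2 1.42.0, its size factors, a replicate block, all libraries in one fit, no filter, adjustment over every biotype, adjusted p alone and each library left out. At 5 days by deposited name, same-numbered libraries deviated together (correlations 0.332, 0.156 and 0.269), so that the numbers were taken to pair them; by label they did not (-0.121, 0.0493 and -0.164). The code was tested on simulated data.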

Additional observations from a re-analysis of the deposited data

How the results depend on the processing

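Results that moved with the settings, as the number of the 10 members changed, were these. TRULI_d5 against DMSO_d5 had 0 by label and 2 with DESeq2, 1 with no filter, 1 with the libraries of 1 condition only (Sesn2; its single TRULI library is assumed to vary like the controls) and 0 to 2 when 1 library was left out; by deposited name it had 3, and 5 with the replicate block, DESeq2 or no filter, 1 with all 10 libraries in one fit and 0 to 1 when 1 library was left out. TRULI_d10 against DMSO_d10 had 0 by label and 2 with DESeq2, no filter or the replicate block (Btg2 and Trp53inp1 each time) and 0 to 2 when 1 library was left out; by name it had 0, and 1 with no filter. TRULI_d10 against TRULI_d5 had 0 by label and 1 with no filter; by name it had 1, also with the block, 2 with DESeq2, no filter or one fit, and 0 to 2 when 1 library was left out. DMSO_d10 against DMSO_d5 had 1 by label and 2 with DESeq2, 4 with no filter, 0 with one fit, 3 with the block and 0 to 2 when 1 library was left out; by name it had 2, 1 with the block and 0 to 3 when 1 library was left out. TRULI_d10 against DMSO_d5 had 4, 0 with all 10 libraries in one fit by label, 4 in one fit by name, 2 with the replicate block of either numbering (Ccng1 and Mdm4) and 1 to 4 when 1 library was left out. The interaction had 0, and 1 (Trp53inp1) with no filter under either grouping. The number of calls over all genes moved with the settings too, and nothing about the members is read from these shifts: at 5 days by name 231 genes were higher, 462 with the block, 380 with DESeq2, 637 with no filter and 65 in one fit, and in TRULI_d10 against DMSO_d5 1223 were, and 8 in one fit by label. In DMSO_d10 against DMSO_d5 by label 235 genes were higher. This number was 329 with DESeq2, 565 with no filter, 366 with the block and 4 in one fit. The causes were not tested. Numbers shared by only 2 pairs or without a common deviation give no pairing, so that the block is a description outside the 5-day comparison by name.

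Signs turned for these log2 fold changes of members. Btg2 was -0.08 in TRULI_d5 against DMSO_d5 by label and -0.894 to 0.339 when 1 library was left out, -0.89 in DMSO_d10 against DMSO_d5 by label and 0.339 by name (-0.396 to 0.879 when 1 was left out), and 1.14 in TRULI_d10 against DMSO_d10 by label and -0.106 by name (0.0228 with the block, -0.612 to 0.661 when 1 was left out); in TRULI_d10 against TRULI_d5 by label it ran from -0.106 to 1.17. In TRULI_d10 against DMSO_d10, Ccng1 was 0.37 by label and -0.0586 by name (-0.356 to 0.312 when 1 was left out), and Trp53 ran from -0.178 to 0.826 by label and from -0.282 to 0.545 by name. Between label and name the sign also turned there for Gadd45a (0.66 and -0.87), Mdm2 (-0.07 and 0.32), Sesn2 (-0.12 and 0.11), Phlda3 (-0.76 and 0.0026) and Zmat3 (0.00051 and -0.02), and in TRULI_d10 against TRULI_d5 for Gadd45a (-0.69 and 0.32). Trp53inp1 in TRULI_d5 against DMSO_d5 ran from -0.209 to 0.132 by label (0.233 with the libraries of 1 condition only) and from -0.164 to 0.227 by name. In TRULI_d10 against DMSO_d5, Gadd45a ran from -0.0939 to 1.34, Phlda3 from -0.304 to 0.966 and Zmat3 from -0.237 to 0.743, and in DMSO_d10 against DMSO_d5 by label Gadd45a ran from -0.145 to 0.414. DESeq2's size factors, adjustment over every biotype and the adjusted p alone changed no count by over 1.5 times. Some choices of grouping by deposited name were added after the data were seen.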
